A study of Mus musculus with 7 samples.

Results

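The genes described here encode 9 regulators of the PI3K, AKT and mTOR pathway: Pik3cg, Pik3r1, Akt1, Akt2, Tsc1, Tsc2, Rptor, Rictor and Rheb. They were found by gene name among the non-control probes of a mouse 1-colour microarray. All 9 were present, with 15 of the 55681 probes on the array, and all 9 were among the 14847 genes tested. The samples were CD8 T lymphocytes from lymph node of mice with 1 copy of the OT-1 T cell receptor transgene (OT-1het), specific for the SIINFEKL peptide of ovalbumin, and Rag-/-. All were cultured with 100 nM SIINFEKL for 24 h before total RNA was taken. There were 4 samples labelled WT and 3 labelled Lck-/-, described as biological replicates. The Lck-/- mice also carried a knocked-in Lck that depends on doxycycline, and dietary doxycycline had been withdrawn for 7 days. No doxycycline is mentioned for WT, so loss of Lck, the construct and the feeding cannot be told apart. The labels name neither the promoter nor the cells that drive this construct, and give no age or sex.

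PI3-kinases make a phosphoinositide lipid at the membrane that recruits the kinase AKT. AKT inhibits the TSC1-TSC2 complex, which otherwise switches off the small GTPase RHEB, and active RHEB turns on mTOR complex 1. In T cells this pathway links antigen receptor and cytokine signals to growth, metabolism and effector fate. It is controlled largely by phosphorylation and protein location, which a microarray does not measure. Lck lies at the start of T cell receptor signalling, and the comparison asks how the transcriptome of activated cells differs without it.

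Pik3cg, Akt2 and Rheb had several probes, and part of each sequence is shown because the agreement between probes decides how far a member's value can be read. The first 30 of 60 bases are printed 5′ to 3′ as in the scanner files, and capitals mark the bases that neighbouring probes share within that stretch. Coordinates are on mm9.
Akt2 probe A_55_P2066518 (chr7:28424405-28424464, plus strand): ctgctggCCTTTCCTTACTCCTCGTATTTG
Akt2 probe A_55_P2025228 (chr7:28424412-28424471, plus strand): CCTTTCCTTACTCCTCGTATTTGtacggta
Akt2 probe A_55_P2066523 (chr7:28418226-28418285, plus strand): gtatgccttccagacccatgaccgcctatg
Akt2 probe A_66_P135179 (chr7:28425375-28425434, plus strand): ctgttcctgtagtgaacacacgtgtctacg
Rheb probe A_55_P2170139 (chr5:24309069-24309128, minus strand): atatcagtgtTTATTTCATTGTGTTAAATG
Rheb probe A_55_P2129034 (chr5:24309059-24309118, minus strand): TTATTTCATTGTGTTAAATGtatacttgta
Rheb probe A_55_P2042688 (chr5:24308641-24308700, minus strand): tctatcttccgtgttaactgcagtggccat
Pik3cg probe A_51_P507832 (chr12:32860765-32860824, minus strand): tgtgactctagggttatggacgtgaaaagt
Pik3cg probe A_55_P2126033 (chr12:32860979-32861038, minus strand): ctcttggcagaaaaaggtgcaagcattgct
The upper pair for Akt2 share 53 of their 60 bases and the upper pair for Rheb share 50, so neither pair is an independent measurement. The other members had 1 probe each, for Pik3r1 at chr13:102454406-102454465, Akt1 at chr12:113892079-113892138, Tsc1 at chr2:28546610-28546669, Tsc2 at chr17:24732882-24732941, Rptor at chr11:119760596-119760655 and Rictor at chr15:6749416-6749475. Whether a probe lies in a coding exon or an untranslated region was not analysed here.

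Values are log2 signal minus the array's 75th percentile, so 0 is the 75th percentile of that array, and levels of different probes are not compared with each other. The share of spots well above background was 46.6% to 61.1% by array, no spot was saturated, and arrays correlated at 0.979 to 0.991 across genes. The signal of Lck did not follow the labels. It was 7.44, 7.67, 7.36 and 6.04 on WT 1 to WT 4 and 8.02, 6.21 and 6.17 on Lck-/- 1 to Lck-/- 3. WT 4 thus read below every Lck-/- array and Lck-/- 1 above every WT array. Which part of Lck was removed is not given in the labels, so whether its probe reads the loss is not known. Whether WT 4 and Lck-/- 1 carry the right label was not tested, and every direction below is between arrays as labelled. Without both arrays, 57 genes passed at an adjusted p under 0.05 by limma, against 0 with all 7 arrays. The arrays left out were picked by their Lck signal after the data were seen, so that count is not a test of the labels. All 8 CD8 T cell markers tested had positive differences (Lck-/- minus WT), with a median of 0.38. Sums were taken over the markers with a value on every array. For the 7 such CD8 markers the summed linear signal was 528 to 599 times the 75th percentile in WT and 652 to 895 times in Lck-/-. All 9 NK cell markers tested also had positive differences, with a median of 1.05. Summed over 8 of them, the signal was 0.91 to 5.16 in WT and 2.10 to 7.84 in Lck-/-. The NK sum was highest on Lck-/- 2 and next highest on WT 4. All 7 myeloid and dendritic markers tested had positive differences too. Summed over only 4 of them, the signal was 0.38 to 1.31 in WT and 0.55 to 1.34 in Lck-/-. Of 5 B cell markers, 2 were tested, and both had positive differences, with a median of 0.50. Among all genes tested 57.6% had positive differences, or 25.9% with the median of each array as reference. At an unadjusted p under 0.05 by limma there were 2 CD8, 0 NK, 2 myeloid and dendritic and 0 B cell markers, against 7.14% of all genes. The groups overlapped for every NK marker tested. Cd79a was well above background on 6 arrays and Cd79b on 7, whereas Ms4a1 and the dendritic cell marker Clec9a were so on none. Some differences below are also given after an adjustment for the mean of the NK markers. Beyond that adjustment, the part of these cell types in the results below was not tested. In bulk RNA, fewer cells of a type and less RNA per cell cannot be told apart.

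None of the 9 genes differed past the threshold between Lck-/- and WT. The count was 0 of 9 by limma at an adjusted p under 0.05, where 0% of all genes tested were called. At an unadjusted p under 0.05 it was again 0 of 9, against 7.14% of all genes, and 0 of 9 parted the groups without overlap, against 7.25%. Fitted as separate features, the members' tested probes gave the same counts of 0, against 6.83% of all probes at an unadjusted p under 0.05 and 7.5% without overlap. Differences ran from -0.37 for Tsc1 to 0.37 for Tsc2, with 7 positive and 2 negative, where 57.6% of all genes were positive. The median of the 9 was 0.10, beside 0.04 over all genes tested. All 9 intervals of 95% lay within a 2-fold change in either direction, the lowest bound being -0.74 and the highest 0.88. A p that misses the threshold does not show equal levels, since the intervals still reach 0.36 to 0.52 to each side of the measured difference.

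**Figure D1:**
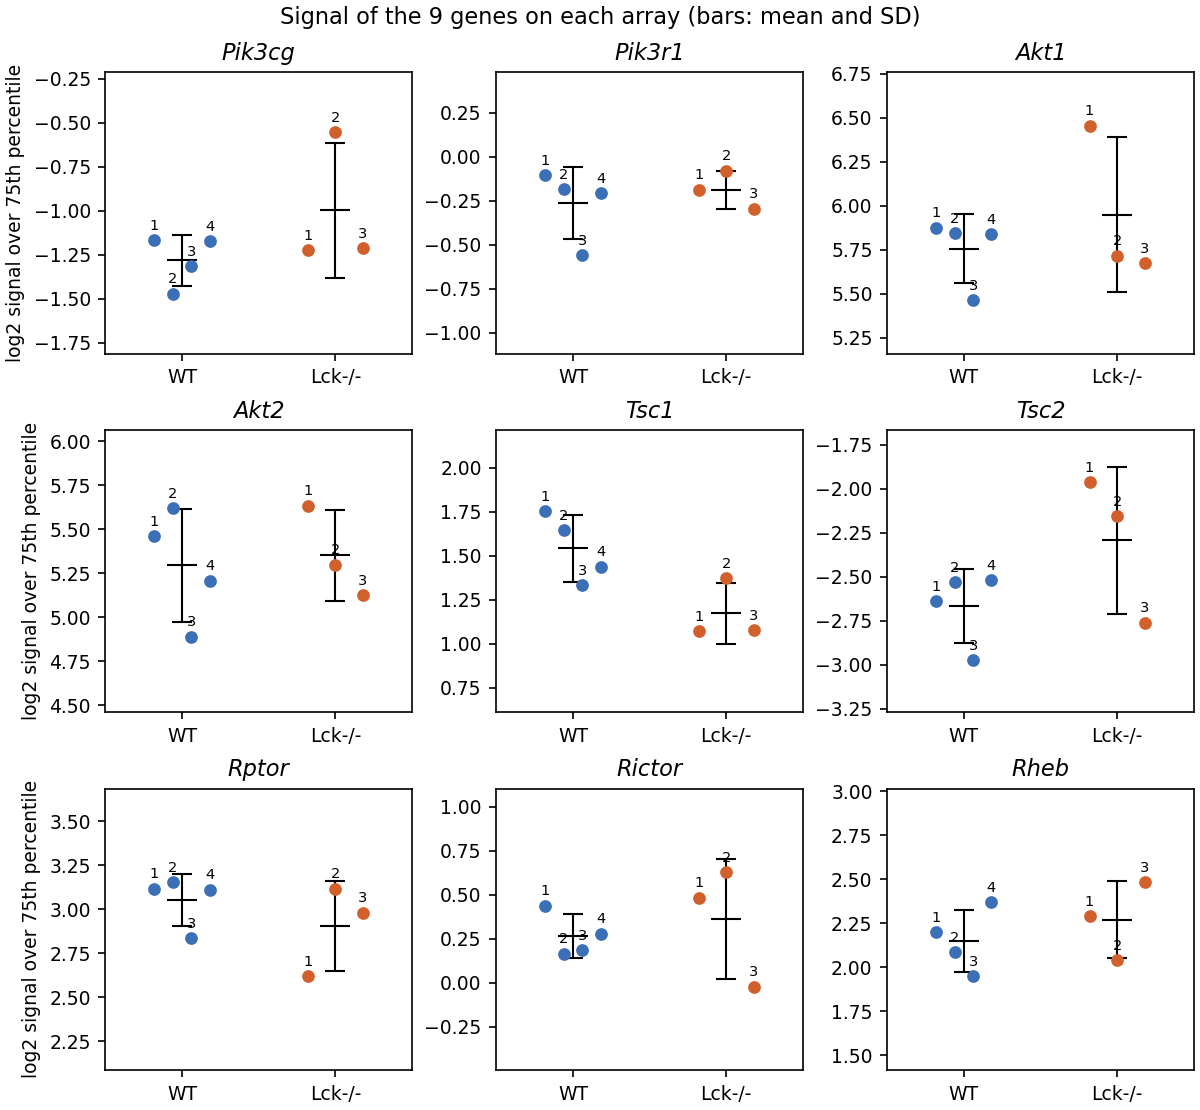
Signal of each of the 9 genes on every array, as log2 signal over the array's 75th percentile, with WT in blue and Lck-/- in orange, array numbers above the points, and black bars for the mean and SD. Each panel spans the same log2 range, and the groups overlap in all 9 panels, by the least in Tsc1, where WT 3 at 1.33 lies below Lck-/- 2 at 1.37.

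**Figure D2:**
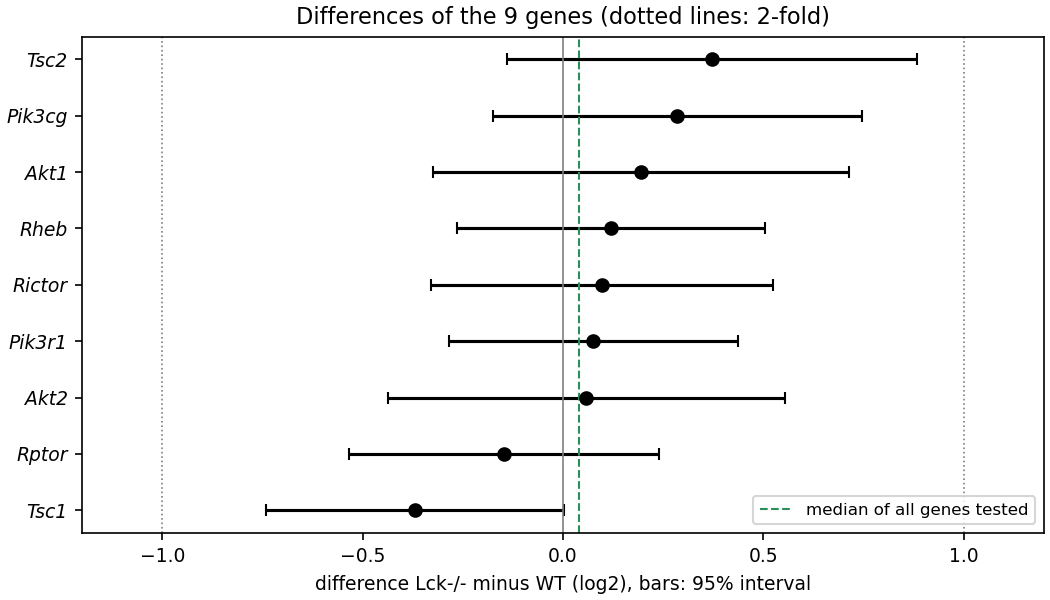
Difference Lck-/- minus WT (log2) for the 9 genes with 95% intervals from limma, sorted by size, with dotted lines at a 2-fold change and a dashed line at the median of all genes tested. All 9 intervals contain 0 and none reaches a dotted line.

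Pik3cg, the gamma catalytic subunit of PI3-kinase, which is activated downstream of G protein-coupled receptors in leukocytes, read -1.17, -1.47, -1.31 and -1.17 on WT 1 to WT 4 and -1.22, -0.55 and -1.21 on Lck-/- 1 to Lck-/- 3. Only Lck-/- 2 stood above the rest, and the other Lck-/- arrays lay inside the WT range. The mean was -1.28 ± 0.14 (SD, n = 4) over the WT arrays. Over Lck-/- arrays it was -1.0 ± 0.38 (SD, n = 3), and the groups differed by 0.29 (SE 0.20, limma unadjusted p = 0.191, which missed the threshold before adjustment). The other Pik3cg probe, A_55_P2126033, gave 0.38 (SE 0.22) and was also highest on Lck-/- 2, at -2.06, against -3.13 to -2.64 elsewhere. The difference of Pik3cg was 0.06 without Lck-/- 2, which was the array with the highest NK marker signal, and 0.13 after adjusting for the NK marker mean. WT 4, with the next highest NK marker signal, read -1.17 for Pik3cg, inside the range of the other WT arrays. Beyond these values, a part of NK cells in the difference of Pik3cg was not tested. In the authors' deposited values the difference of Pik3cg was 0.14. Scaled to each array's median it was 0.08. Probe A_55_P2126033 likewise gave 0.15 without Lck-/- 2. Without WT 4 and Lck-/- 1, the arrays doubted by their Lck signal, the difference of Pik3cg was 0.43.

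Pik3r1, a regulatory subunit that stabilises class I catalytic subunits and holds them inactive until recruited, had the narrowest range over the 7 arrays among the members, 0.48. It read -0.10, -0.18, -0.56 and -0.21 on WT 1 to WT 4 and -0.19, -0.08 and -0.29 on Lck-/- 1 to Lck-/- 3. All 3 Lck-/- values lay within the WT range. The difference was 0.08 (SE 0.16, limma adjusted p = 0.969).

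Akt1 and Akt2 encode closely related serine-threonine kinases that carry the signal of PI3-kinase to TSC2 and the FOXO factors. Akt1 read 5.87, 5.84, 5.46 and 5.84 on WT 1 to WT 4 and 6.45, 5.72 and 5.67 on Lck-/- 1 to Lck-/- 3. The highest value of Akt1 was on Lck-/- 1, while Lck-/- 2 and Lck-/- 3 lay within the WT range. Its mean was 5.75 ± 0.20 (SD, n = 4) over the WT arrays. Over Lck-/- arrays it was 5.95 ± 0.44 (SD, n = 3), and the groups differed by 0.19 (SE 0.22, limma adjusted p = 0.92). Without Lck-/- 1 the difference of Akt1 was -0.06, and without WT 3 it was 0.10. On WT 3, 1 of its 2 spots was left out as an outlier. Akt1 was also -0.01 with the median as reference and -0.03 without both doubted arrays.

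Akt2 was read by 4 probes, and those with a value on every array all gave positive differences. The probe with the highest mean, A_55_P2066518, read 5.46, 5.62, 4.89 and 5.21 on WT 1 to WT 4 and 5.64, 5.30 and 5.13 on Lck-/- 1 to Lck-/- 3, and the groups differed by 0.06 (SE 0.21, limma adjusted p = 0.988). WT 3 was lowest, and the top values of both groups were nearly equal. Its neighbour A_55_P2025228, with no usable value on Lck-/- 1, gave -0.08 (SE 0.20). The other probes gave 0.21 (SE 0.23) for A_55_P2066523 and 0.11 (SE 0.19) for A_66_P135179. With Lck-/- 1 left out, A_55_P2066518 also gave -0.08, so the overlapping pair did not differ in sign over the same arrays. On those arrays A_55_P2066523 gave 0.15 and A_66_P135179 gave 0.13. With single arrays left out, A_55_P2066523 ran from 0.07 without Lck-/- 3 to 0.43 without Lck-/- 2, with 0.08 without WT 3, and it was 0.01 with the median as reference. After centring each probe on its own mean, the overlapping pair differed by a root mean square of 0.13 over 6 arrays, and the other pairs by 0.23 to 0.33. The largest gap was 0.60 on Lck-/- 3, between A_55_P2066518 and A_55_P2066523, which lies upstream of the other 3. The sign of the gene's difference turned with quantile normalization (-0.01), with normexp (-0.02), with the median as reference (-0.15), without WT 3 (-0.08), without Lck-/- 1 (-0.08) and without both doubted arrays (-0.11).

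**Figure D3:**
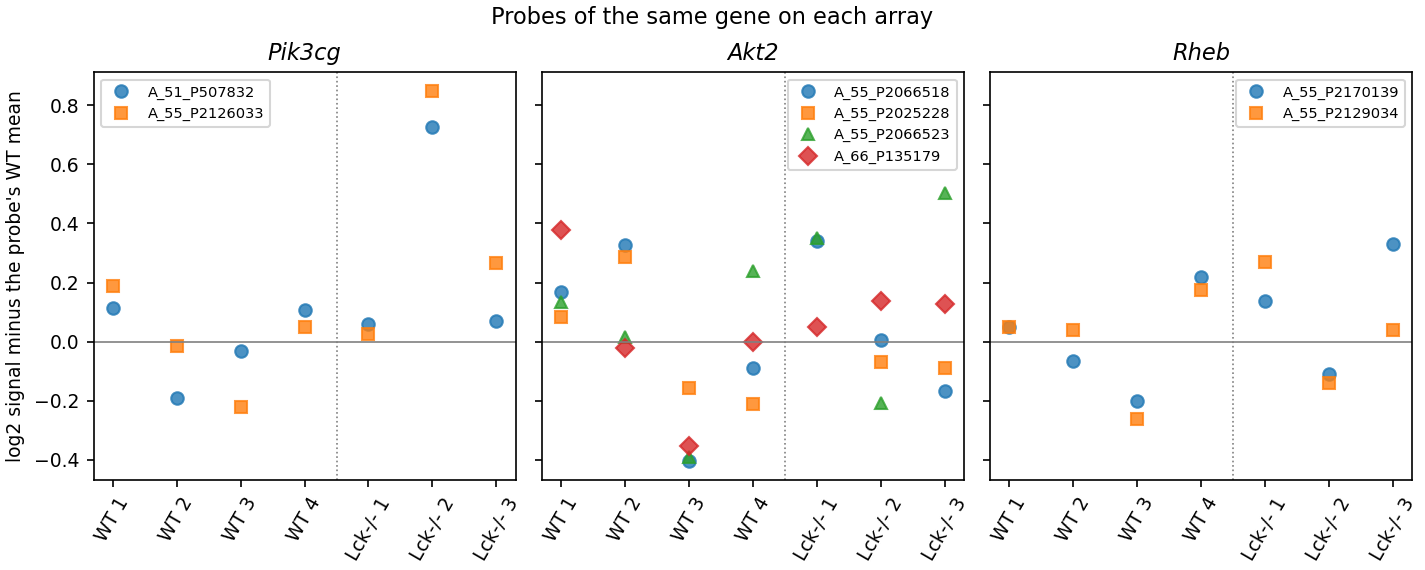
Signal of each probe of Pik3cg, Akt2 and Rheb on every array, as log2 signal minus that probe's WT mean, with WT left of the dotted line and Lck-/- right of it. Both Pik3cg probes stand highest on Lck-/- 2, whereas the Akt2 probes spread widest on Lck-/- 3.

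Tsc1 and Tsc2 encode hamartin and tuberin, the stabilising subunit and the GTPase-activating subunit of the complex that restrains RHEB. Tsc1 read 1.75, 1.65, 1.33 and 1.44 on WT 1 to WT 4 and 1.07, 1.37 and 1.08 on Lck-/- 1 to Lck-/- 3. The lowest WT value, on WT 3, lay just below the highest Lck-/- value, on Lck-/- 2, and all other values were parted. Its mean was 1.54 ± 0.19 (SD, n = 4) over the WT arrays. Over Lck-/- arrays it was 1.17 ± 0.17 (SD, n = 3), and the groups differed by -0.37 (SE 0.16, 95% interval -0.74 to 0.00, limma unadjusted p = 0.052, adjusted p = 0.694). By p, Tsc1 ranked 1101 among the 14847 genes tested. The difference of Tsc1 stayed negative in all 17 alternatives, from -0.57 with the median as reference to -0.30 without WT 1, and the adjusted p was 0.504 to 1 in them.

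Tsc2 read -2.64, -2.53, -2.97 and -2.52 on WT 1 to WT 4 and -1.96, -2.16 and -2.76 on Lck-/- 1 to Lck-/- 3. Lck-/- 1 and Lck-/- 2 were above every WT array, and Lck-/- 3 lay within the WT range. Its mean was -2.67 ± 0.21 (SD, n = 4) over the WT arrays. Over Lck-/- arrays it was -2.29 ± 0.42 (SD, n = 3), and the groups differed by 0.37 (SE 0.22, limma adjusted p = 0.789). The difference of Tsc2 was positive in all 17 alternatives but was 0.11 with the authors' deposited values and 0.61 without Lck-/- 3. It was 0.17 with normexp or with the median as reference.

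The log2 ratio of Tsc1 to Tsc2 within each array is unaffected by any constant scaling of that array. It was 4.39, 4.18, 4.31 and 3.96 on WT 1 to WT 4 and 3.04, 3.53 and 3.84 on Lck-/- 1 to Lck-/- 3, lower by 0.74 on average in Lck-/-, and the groups were parted. The lowest WT ratio and the highest Lck-/- ratio were close, on WT 4 and Lck-/- 3. The exact two-sided permutation test, with the smaller tail counted for both tails, gave p = 0.0571. That is the smallest p this form of the test allows for the 35 arrangements of 4 against 3 arrays. After Benjamini-Hochberg adjustment over all 36 pairs of members the permutation p was 0.411. Of those 36 ratios, 4 parted the groups without overlap, against 8.7% of the ratios of all pairs of genes. All 4 contain Tsc1, its partners being Pik3cg, Pik3r1, Tsc2 and Rictor, so they are not independent of each other. The shift of the Tsc1 to Tsc2 ratio was -0.53 without Lck-/- 1, -0.51 with normexp, -0.48 with the authors' deposited values and -0.61 without both doubted arrays. After adjustment the ratio did not pass the threshold, and a ratio does not say which of its genes differs.

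Rptor and Rictor encode the defining scaffolds of mTOR complex 1 and mTOR complex 2, and complex 2 phosphorylates AKT. Rptor read 3.12, 3.15, 2.83 and 3.11 on WT 1 to WT 4 and 2.62, 3.12 and 2.98 on Lck-/- 1 to Lck-/- 3. WT 3 was set apart below the other WT arrays, and Lck-/- 1 was lower still. The difference of Rptor was -0.15 (SE 0.17, limma adjusted p = 0.917). It was -0.01 without Lck-/- 1, 0.01 without both doubted arrays, and -0.35 with the median as reference. Rictor read 0.44, 0.16, 0.18 and 0.28 on WT 1 to WT 4 and 0.48, 0.63 and -0.02 on Lck-/- 1 to Lck-/- 3. Its Lck-/- values lay on both sides of the WT range, and the difference was 0.10 (SE 0.18, limma adjusted p = 0.967). It was 0.29 without Lck-/- 3, -0.04 without Lck-/- 2 and -0.11 with the median as reference.

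Rheb, the GTPase that activates mTOR complex 1, read 2.20, 2.09, 1.95 and 2.37 on WT 1 to WT 4 and 2.29, 2.04 and 2.48 on Lck-/- 1 to Lck-/- 3 with probe A_55_P2170139. The groups interleaved, and the difference was 0.12 (SE 0.17, limma adjusted p = 0.942). It was 0.24 without Lck-/- 2, 0.02 without Lck-/- 3, 0.05 without WT 3 and -0.08 with the median as reference. The overlapping probe A_55_P2129034 gave 0.06 (SE 0.17), and the pair lay furthest apart on Lck-/- 3, by 0.26. The downstream probe A_55_P2042688 was not well above background on any of the 7 arrays, so Rheb was measured by the overlapping pair alone.

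Taken by array, the members did not move together with the labels. WT 3 held the lowest value for 5 of the 9 genes, where it held the lowest for 34% of all genes tested. Lck-/- 1 and Lck-/- 2 each held the highest value for 3 of the 9, against 20.2% and 19.2% of all genes. Lck-/- 1 was also lowest for 2, Tsc1 and Rptor. With the median of each array in place of the 75th percentile the median difference of all genes moved from 0.04 to -0.16, that of the members from 0.10 to -0.11, and 2 members were positive and 7 negative. The share of all genes with a positive difference was 57.6% with the 75th percentile, 52.1% with quantile normalization, 48.2% with the authors' deposited values and 25.9% with the median.

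**Figure D4:**
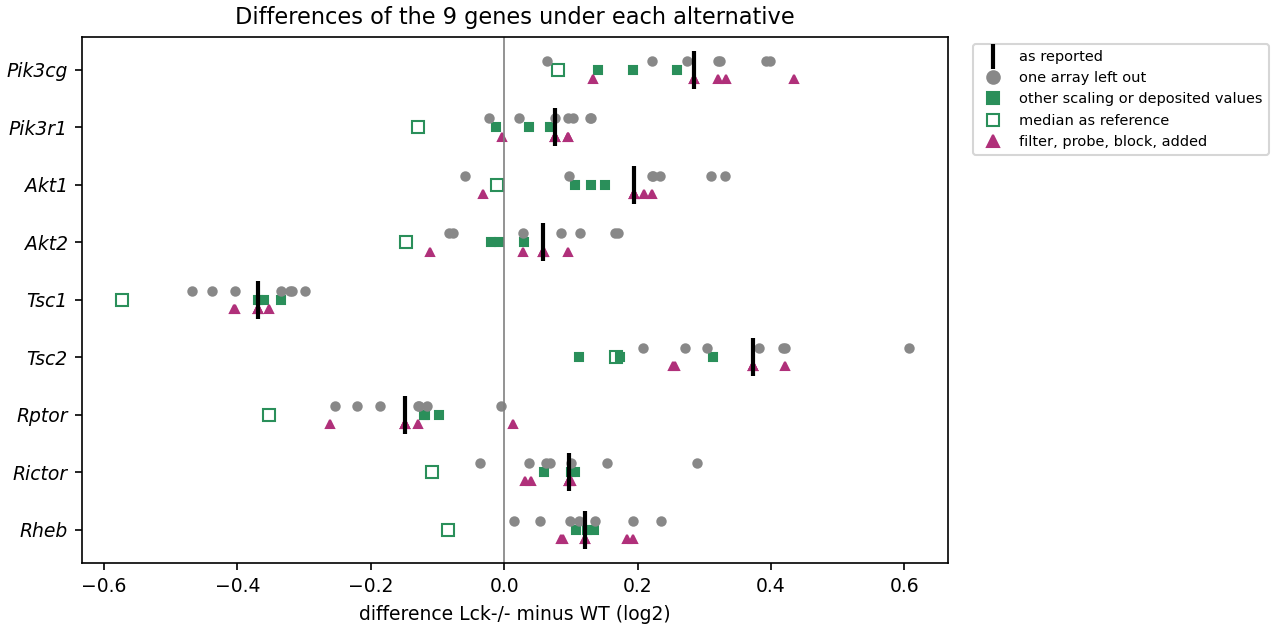
Difference Lck-/- minus WT (log2) of each of the 9 genes as reported (black bar) and under every alternative (symbols). Tsc1 stays below 0, Tsc2 and Pik3cg stay above 0, and the other 6 genes cross 0 under at least 1 alternative.

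Tsc2, Akt1 and Pik3cg had the widest ranges over the 7 arrays among the members, 1.01, 0.99 and 0.92. Their closest profiles were sought among 14171 other genes, as the smallest root mean square difference over the 7 arrays after centring each gene. For Tsc2 these were Ppp1r16b (0.09), a regulatory subunit of protein phosphatase, and the predicted gene Gm5878 (0.09). For Akt1 they were Tagap (0.06), a GTPase-activating protein of activated T cells, and Elp2 (0.06), a subunit of the Elongator complex. For Pik3cg they were Arhgap30 (0.07), another GTPase-activating protein, and Arv1 (0.09), a lipid transport factor. With so few arrays and so many genes, close profiles are a description only.

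Other genes of the pathway were also not called. Of 85 genes in 8 role lists, 83 were tested and 0 passed at an adjusted p under 0.05 by limma. Their median difference was 0.04, equal to that of all genes to 2 decimals. At an unadjusted p under 0.05 there were 4 higher and 2 lower, or 6 of 83, against 4.95% higher and 2.19% lower among all genes. Without overlap of the groups, 4 were higher and 3 lower, or 7 of 83, against 5.11% and 2.14% of all genes. Both counts of higher genes include Pik3ap1, which passed the background filter through the group where it is high. With or without Pik3ap1, the members and these genes held shares close to or below the background.

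The counts of positive differences in the role lists below stand beside 57.6% positive among all genes tested. Among 10 PI3-kinase subunits and adaptors, 7 differences were positive, with a median of 0.06. Pik3cd, the delta catalytic subunit that is the main class I isoform of lymphocytes, read 6.12, 5.87, 5.77 and 6.20 on WT 1 to WT 4 and 6.92, 6.26 and 6.31 on Lck-/- 1 to Lck-/- 3. The groups did not overlap, with Lck-/- 1 furthest above. The difference of Pik3cd was 0.51 (SE 0.21, limma adjusted p = 0.694), 0.29 without Lck-/- 1, 0.32 as the mean of its probes and 0.30 with the median as reference. Pik3ap1, an adaptor that links receptors to PI3-kinase in B, NK and myeloid cells, differed by 0.81 (SE 0.27, limma adjusted p = 0.629). Its probe was detected over background on 1 of 4 WT and all 3 Lck-/- arrays, so it passed the filter through the group where it is high, its WT values are mostly at background, and nothing is read from its place in the counts of pathway genes above. The difference of Pik3ap1 was 0.16 with normexp, 0.15 with the authors' deposited values, 0.49 without Lck-/- 1 and 0.42 without both doubted arrays.

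Among 7 phosphatases that oppose the pathway, 5 differences were positive, with a median of 0.07. Phlpp2, which dephosphorylates AKT, read 1.09, 1.03, 0.91 and 1.06 on WT 1 to WT 4 and 0.67, 0.76 and 0.48 on Lck-/- 1 to Lck-/- 3. The groups did not overlap, and the difference was -0.39 (SE 0.13, limma adjusted p = 0.632). The mean over the probes of Phlpp2 gave 0.05, so its probes disagreed.

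Of 9 genes of AKT activation and its direct targets, 4 were positive, with a median of -0.10. The kinase gene Gsk3b differed by -0.29 (SE 0.16), or -0.13 as the mean of its probes and -0.50 with the median as reference, and the pseudokinase gene Trib3 by 0.14 (SE 0.22), or -0.02 without Lck-/- 1 and -0.06 with the median as reference. Of 9 further mTOR complex subunits and assembly factors, 5 were positive, between -0.10 and 0.12. Akt1s1, an inhibitory subunit of complex 1, differed by 0.12 (SE 0.17) and the assembly factor gene Tti1 by 0.00 (SE 0.14). With the median as reference these became -0.08 and -0.20.

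Of 8 tested genes of the TSC complex and stress inputs, 4 were positive, with a median of 0.00. Ddit4, a stress-induced inhibitor of mTOR complex 1, differed by 0.47 (SE 0.29), which was 0.17 without Lck-/- 1, 0.03 without both doubted arrays and 0.77 after adjusting for the NK marker mean. The AMPK subunit gene Prkab2 differed by 0.29 (SE 0.15), or 0.08 with the median as reference. Of 22 genes of the Rag GTPases and amino acid sensing, 10 were positive, with a median of 0.00. Depdc5, a subunit of the complex that inactivates Rag GTPases, differed by -0.25 (SE 0.13) without overlap of the groups, but by -0.06 as the mean of its probes and -0.46 with the median as reference. The Ragulator subunit gene Lamtor5 differed by -0.12 (SE 0.14), between -0.19 and -0.07 when single arrays were left out and by -0.33 with the median as reference.

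Of 10 tested effectors of mTOR complex 1, 7 were positive, with a median of 0.06. Eif4b, a translation initiation factor, differed by 0.44 (SE 0.19, limma adjusted p = 0.694), and by 0.23 with the median as reference. Eif4ebp1, a translational repressor inactivated by complex 1, differed by 0.04 (SE 0.17), between -0.14 and 0.15 when single arrays were left out. Of 8 genes that FOXO1, a factor kept out of the nucleus by AKT, is known to activate in T cells, 6 were positive, with a median of 0.14. Ccr7, the chemokine receptor of lymph node entry, differed by 0.47 (SE 0.21, limma adjusted p = 0.694), 0.25 after adjusting for the NK marker mean and 0.26 with the median as reference. The groups did not overlap for Ccr7.

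**Figure D5:**
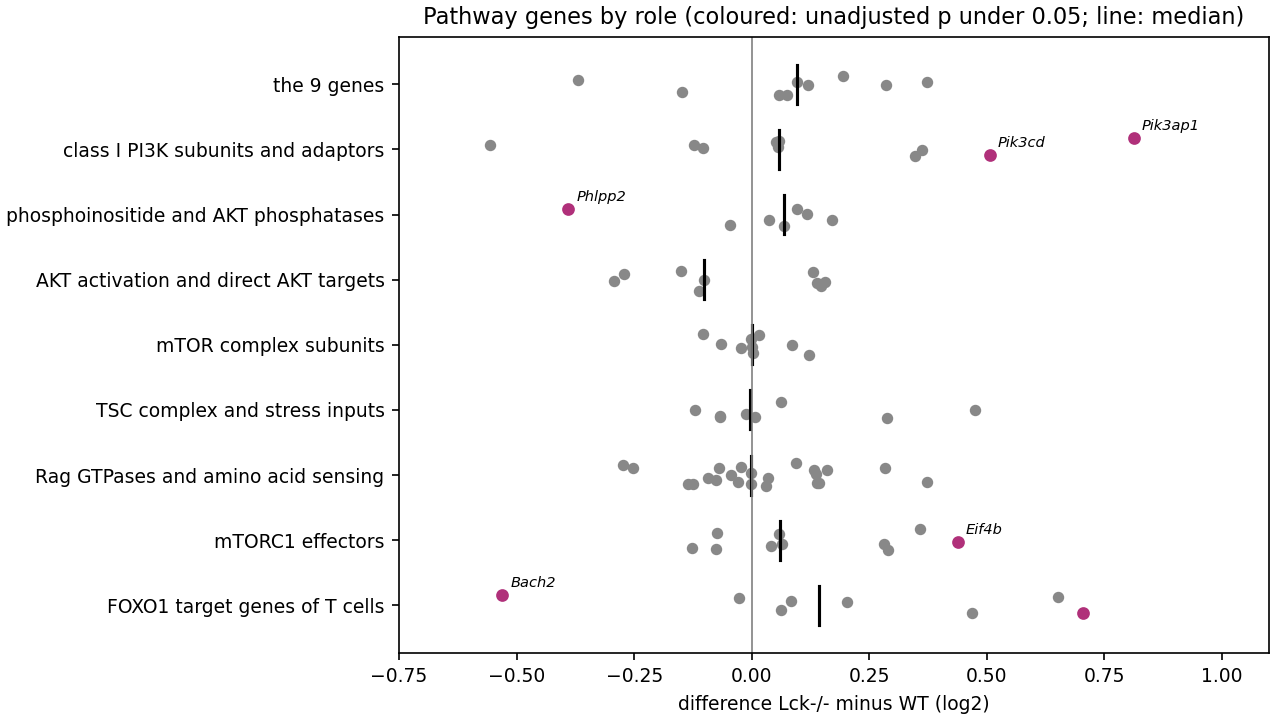
Difference Lck-/- minus WT (log2) of the 9 genes and of 83 further pathway genes by role, 1 point a gene, with a black line at each median and colour for an unadjusted p under 0.05. The coloured genes number 6, and no gene passed at an adjusted p under 0.05.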

How the data were processed

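Each of 7 samples was hybridised to 1 Agilent array. Per the file headers, Feature Extraction 10.7.3.1 gave the spot intensity, with detrending and background subtraction and no scaling between arrays. The authors' deposited log2 value table (column medians 6.63 to 6.67, correlation with log2 spot median signal 0.999 to 1) has no stated between-array normalization or centring, and was an alternative only. Per the submitters' processing notes, limma was used. The scale here is log2 processed intensity minus the array's 75th percentile over non-control spots, which ran from 354 to 615 across arrays. Outlier spots were left out, spots of a probe were averaged, and probes well above background on at least 3 of 7 arrays were kept. Genes were named by accession, symbol or synonym from the reference table of assembly GRCm38.p6. Another 22497 probes, named only by an accession, probe ID or interval, were left out. The probe with the highest mean stood for a gene.

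Lck-/- was compared with WT with limma 3.58.1 in R 4.3.3 (two-sided, Benjamini-Hochberg over 14847 genes, threshold 0.05). Probes were also fitted as 29227 separate features, and the errors given for further probes of a member are from that fit. The procedure was tested on simulated data. The members and lists were chosen with earlier results of these data known. Named are all members and, from each of 8 lists, the gene with the smallest p and that with the highest mean signal, except that some of these genes are not reported here. The number of arrays limits precision. Same-numbered arrays correlated at -0.03 to 0.10 in their deviations, so the title numbers were not taken to pair samples. All arrays were on 1 slide. Alternatives were other scalings, normexp with an offset of 50, deposited values, other filters, the mean of probes, the title number as a block, leaving out each array, and, added after the data were seen, both doubted arrays out and the NK marker mean as a covariate.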

Additional observations from a re-analysis of the deposited data

Results flagged for a closer look

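Both results here concern the array labelled WT 3. For Akt1, WT 3 at 5.46 lay apart from the other WT arrays at 5.84 to 5.87, the gap being 0.913 of the group's range, above Dixon's 95% critical ratio for 4 samples. For Rptor, WT 3 at 2.83 lay apart from 3.11 to 3.15, with a ratio of 0.868. Chance flags about 1 in 20 groups, and 28 were examined. WT 3 also had the most outlier spots, 1549, and the highest 75th percentile, 615. The part of these in the low values was not tested.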

How the results depend on the processing

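No member and no other pathway gene passed the threshold in any of the 15 planned or 2 added alternatives. Over all genes 1 passed with the title number as a replicate block (Klra15), 0 to 1 when each array was left out (Xist, without WT 1), and 57 without both doubted arrays. Over all probes the counts were 0 to 7 with single arrays out and 47 without both. At an unadjusted p under 0.05 the count of members was 0 or 1, Tsc1 in 7 alternatives and Tsc2 without Lck-/- 3. The block changed no other call. All 9 intervals lay within a 2-fold change except that of Tsc1 with the median as reference, of Tsc2 without WT 2, WT 4 or Lck-/- 3, and of Pik3cg without both doubted arrays. Pathway genes at an unadjusted p under 0.05 numbered 6, but 2 with the mean of probes and 3 with no background filter or without Lck-/- 3.

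With the median as reference the sign turned for Pik3r1 (-0.13), Akt1 (-0.011), Akt2 (-0.15), Rictor (-0.11), Rheb (-0.084), Trib3 (-0.065), Akt1s1 (-0.083), Tti1 (-0.20), Eif4ebp1 (-0.16) and probes A_66_P135179 (-0.10) and A_55_P2129034 (-0.15). It turned with quantile normalization for Akt2 (-0.0071) and Eif4ebp1 (-0.10), with normexp for Akt2 (-0.020) and Eif4ebp1 (-0.077), with the deposited values for Pik3r1 (-0.012), and with the mean of probes for Phlpp2 (0.053). Without both doubted arrays it turned for Akt1 (-0.031), Akt2 (-0.11), Rptor (0.014), Trib3 (-0.055) and Eif4ebp1 (-0.14), and after adjusting for the NK marker mean for Pik3r1 (-0.0034), Tti1 (-0.053) and Lck (0.29). With single arrays left out the ranges that crossed 0 were -0.023 to 0.13 for Pik3r1, -0.059 to 0.33 for Akt1, -0.082 to 0.17 for Akt2, -0.036 to 0.29 for Rictor, -0.023 to 0.38 for Trib3, -0.00043 to 0.24 for Akt1s1, -0.046 to 0.058 for Tti1, -0.14 to 0.15 for Eif4ebp1, -0.15 to 0.016 for A_55_P2025228, -0.013 to 0.23 for A_66_P135179 and -0.050 to 0.16 for A_55_P2129034. The cause was not tested.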

Other observations

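Some pathway genes outside the naming rule, picked after their values were seen, are given here with their differences. Bach2, a transcriptional repressor that FOXO factors sustain in T cells, averaged 3.04 ± 0.35 (SD, n = 4) over the WT arrays and 2.51 ± 0.18 (SD, n = 3) over the others. The groups differed by -0.53 (SE 0.21, limma adjusted p = 0.691) without overlap of the groups, opposite in sign to Ccr7 of the same list. Pik3ip1, an inhibitor of PI3-kinase that falls when T cells are activated, differed by 0.36 (SE 0.17). Pik3r3, another regulatory subunit, differed by -0.56 (SE 0.27), and the sphingosine phosphate receptor gene S1pr1 by 0.65 (SE 0.37). The groups overlapped for Pik3ip1, Pik3r3 and S1pr1. Pik3r3 was low, at -4.77 to -3.50, and its probe was well above background on 6 of 7 arrays. None of these pathway genes passed over all genes.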
